A study of Mus musculus with 13 samples.

Results

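Vomeronasal type 1 receptor genes (Vmn1r) were followed in mouse embryonic stem cells (ESCs) by ChIP-seq of H3K27me3, the repressive histone mark that Polycomb repressive complex 2 deposits. Members were all promoter rows of the deposited count table whose gene symbol was Vmn1r followed by a number. There were 381 such rows, for 229 genes, of 77489 rows for 55232 genes used. Of these, 109 rows (52 genes) lie on chromosome 6 and 272 rows (177 genes) on other chromosomes, of which 168 rows are on chromosome 7, 70 on chromosome 13 and 28 on chromosome 17. Chromosome 6 thus held 28.6% of the member rows, against 5.61% of all rows. All cells were male CAST/B6 cells and carried a recombinase-mediated cassette exchange (RMCE) site in the Rosa26 locus, which lies on chromosome 6. Every culture had 3 days of doxycycline before fixation in 0.6% formaldehyde. Cells with a double knockout of SAFB1 and SAFB2 (DKO), paralogous nuclear proteins that bind RNA, gave 4 H3K27me3 libraries and 2 total H3 libraries, against 5 and 2 libraries of wild-type (WT) cells. DKO replicate 1 for H3K27me3 was clone 4 and all other DKO libraries were clone 13, so the knockout rests on 2 clones. The stem rmce occurs in the names of WT replicates 1, 4 and 5 alone among the WT libraries. The sources used here do not give the gene that doxycycline induces, what Old and New mean in 4 library names (DKO replicates 3 and 4, WT replicates 4 and 5), or whether replicates were separate cultures. They also do not say whether the tag b6 in the names restricts the counts to 1 parental allele. The spread behind each p-value is that between libraries and may be technical. In bulk ChIP-seq, fewer marked cells and less mark per cell cannot be told apart.

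V1R receptors are G protein-coupled receptors of the vomeronasal organ, where sensory neurons use them to detect pheromones and related cues. Each neuron uses very few receptor genes, signals through the G protein subunit Gnai2 and the cation channel Trpc2, and keeps the remaining receptor genes silent. The genes form tandem arrays of close paralogs and have no known role in ESCs. In ESCs, Polycomb repressive complex 2 is known to settle mainly on promoters rich in CG dinucleotides.

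The promoters are shown first because their composition differs from that of the usual Polycomb target. The table of RefSeq promoters (GRCm38.p6, 250 bases before to 50 after a start) held 205 of the 229 genes, 45 of them on chromosome 6. The members with the highest H3K27me3 and an entry were Vmn1r50 and Vmn1r51 on chromosome 6 and Vmn1r235 and Vmn1r226 on chromosome 17. They are printed beside Neurog1, a neurogenic transcription factor whose promoter was the highest of the receptor-neuron genes listed further on. Capitals mark each CG.
Vmn1r50: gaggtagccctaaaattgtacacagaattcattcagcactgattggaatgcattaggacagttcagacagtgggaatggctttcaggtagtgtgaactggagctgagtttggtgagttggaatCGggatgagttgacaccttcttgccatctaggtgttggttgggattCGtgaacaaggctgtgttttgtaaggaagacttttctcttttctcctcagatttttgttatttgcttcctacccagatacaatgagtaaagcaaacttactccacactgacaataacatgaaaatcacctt
Vmn1r51: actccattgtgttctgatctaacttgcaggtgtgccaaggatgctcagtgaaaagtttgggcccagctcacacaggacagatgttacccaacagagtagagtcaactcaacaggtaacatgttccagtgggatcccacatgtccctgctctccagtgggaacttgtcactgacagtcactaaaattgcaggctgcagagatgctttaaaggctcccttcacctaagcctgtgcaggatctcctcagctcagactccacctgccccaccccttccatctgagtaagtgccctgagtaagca
Vmn1r235: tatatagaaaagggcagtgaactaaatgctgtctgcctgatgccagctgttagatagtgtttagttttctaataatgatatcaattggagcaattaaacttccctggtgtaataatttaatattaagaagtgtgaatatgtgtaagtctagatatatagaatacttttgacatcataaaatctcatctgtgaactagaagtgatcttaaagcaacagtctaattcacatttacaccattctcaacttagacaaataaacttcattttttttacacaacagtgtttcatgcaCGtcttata
Vmn1r226: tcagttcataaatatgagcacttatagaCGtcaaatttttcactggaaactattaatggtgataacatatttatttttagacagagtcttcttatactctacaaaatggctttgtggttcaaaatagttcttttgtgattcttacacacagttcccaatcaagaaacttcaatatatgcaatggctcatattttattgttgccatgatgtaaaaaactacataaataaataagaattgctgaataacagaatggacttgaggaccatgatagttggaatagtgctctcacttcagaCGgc
Neurog1: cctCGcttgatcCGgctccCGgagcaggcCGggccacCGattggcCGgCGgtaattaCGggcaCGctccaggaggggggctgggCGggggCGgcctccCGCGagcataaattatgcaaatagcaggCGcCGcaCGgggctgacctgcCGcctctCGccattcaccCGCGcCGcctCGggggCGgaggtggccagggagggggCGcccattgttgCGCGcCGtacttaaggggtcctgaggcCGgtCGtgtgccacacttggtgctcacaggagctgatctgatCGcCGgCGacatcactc

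These sequences lie on the + strand at chr6:90107025-90107324 (Vmn1r50), chr6:90122393-90122692 (Vmn1r51), chr17:21260177-21260476 (Vmn1r235) and chr17:20687258-20687557 (Vmn1r226), and on the - strand at chr13:56252131-56252430 (Neurog1). Vmn1r50 and Vmn1r226 have 2 CG dinucleotides, Vmn1r235 has 1 and Vmn1r51 has 0, against 32 in Neurog1. A gene can have several start sites in the count table. Each of the 4 Vmn1r windows lies in a lower row of its gene than the gene's highest one.

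Over all members with an entry, the chromosome 6 promoters had a median of 1 CG in 300 bases (range 0 to 6, 45 promoters) and those of other chromosomes a median of 2 (range 0 to 5, 160 promoters). The median over the 32851 promoters of the table was 7. No Vmn1r promoter reached 10 CG, against 43.5% of all promoters. The G+C content had a median of 32.0% on chromosome 6, 36.3% on other chromosomes and 52.7% over the table. TAATTA, a homeodomain core motif, was found on either strand in 13.3% of the chromosome 6 and 5.62% of the other Vmn1r promoters, against 5.29% of all. TATAAA, the core of the box bound by the TATA-binding protein, was found in 33.3% of the chromosome 6 and 45.0% of the other ones, against 13.6% of all. The E-box of bHLH factors (CANNTG) was found in 62.2% of the chromosome 6 and 87.5% of the other ones, against 72.3% of all. TATAAA and TAATTA can share bases, and a match is only a description of these windows. Both groups of members were thus poor in CG. This is not particular to them. The promoters of Vmn2r (117) and Olfr (944), 2 other chemoreceptor families, each had a median of 1 CG and G+C medians of 38.0% and 35.0%. TAATTA was found in 17.1% of the Vmn2r and 18.6% of the Olfr promoters. TATAAA was found in 23.1% and 41.2% of them, and CANNTG in 97.4% and 77.4%.

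**Figure D1:**
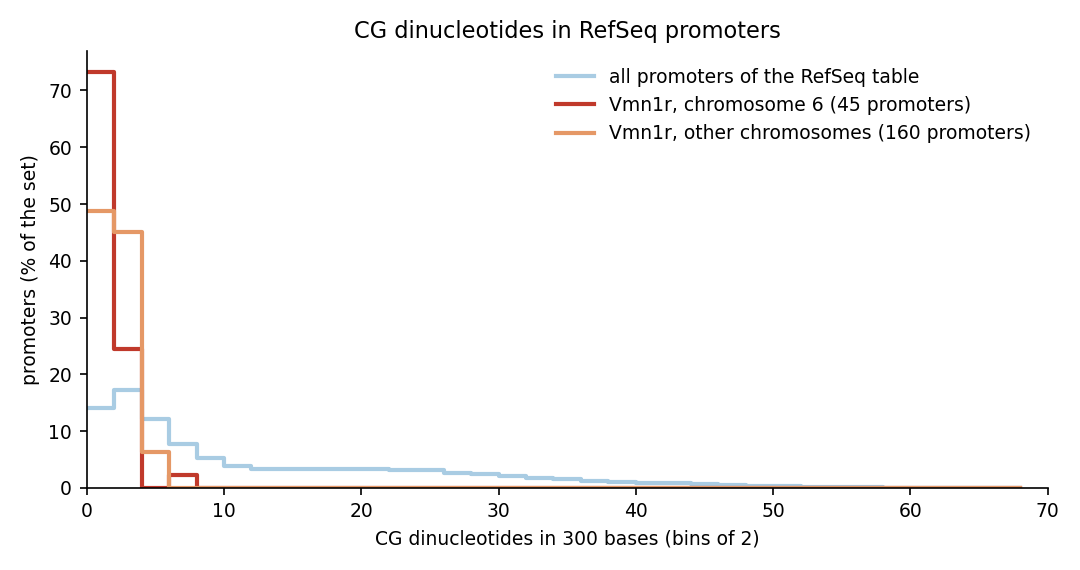
CG dinucleotides in the 300 bases of each RefSeq promoter (x axis, bins of 2) against the share of promoters in the set (y axis, %), for Vmn1r promoters on chromosome 6 and on other chromosomes and for all promoters of the table. No Vmn1r promoter has more than 6 CG, while the full table extends to 67.

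As a check on the cell type, the 8 listed promoters of pluripotency genes had a median of 5.66 CPM and the 8 listed Polycomb targets of stem cells a median of 139 CPM. The 2 lists overlapped, with ranges of 0 to 93.1 CPM and 0 to 364 CPM. Klf4 (93.1 CPM), Dppa3 (36.4 CPM) and Esrrb (33.9 CPM) were high for pluripotency genes. Hoxa11 (0 CPM) and Gata4 (18.9 CPM) had low counts for Polycomb targets. Reads that overlap several rows were not counted, so a low count need not be a low mark. Of the chromosome 6 rows that are no member, 740 of 4237 had no count, but 7 of the 2159 that overlap no other row. The part of overlap in the 0 at Hoxa11, or in other low values here, was not tested. Of the 7 targets tested, 3 fell in DKO by edgeR (Hoxd10, Hoxd11 and Nkx2-1) and 0 rose, where 0.19% of all promoter rows tested fell and 0.438% rose. The promoter rows held between 983501 and 1399970 counts in DKO libraries and between 798466 and 1427770 counts in WT libraries, and the chromosome 6 Vmn1r rows between 1646 and 2648 counts in DKO libraries and between 1746 and 3273 counts in WT libraries. WT replicate 1 stood apart in having the lowest share of counts on chromosome 6, and values without it are given beside the results it moves.

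Within every library, Vmn1r promoters on chromosome 6 carried more H3K27me3 than those on other chromosomes. A promoter row runs 2000 bp upstream and 1000 bp downstream of a start, 3001 bp in all, and its level is given in CPM, the library-scaled counts of edgeR after TMM. The mean chromosome 6 row held 18.1, 15.3, 16.4 and 18.5 CPM in DKO replicates 1 to 4, against 15.1, 20.1, 19.1, 20.5 and 21.2 CPM in WT replicates 1 to 5. The mean row on other chromosomes held 6.69, 5.92, 6.26 and 6.55 CPM in DKO replicates 1 to 4, against 6.33, 6.97, 6.74, 7.22 and 6.84 CPM in WT replicates 1 to 5. The lowest chromosome 6 value, in WT replicate 1, is above the highest value of the other chromosomes. The ratio per row was 2.68 ± 0.113 in DKO libraries (SD, n = 4) and 2.81 ± 0.262 in WT libraries (SD, n = 5). Over the 9 libraries together the log2 ratio was 1.46, higher in 9 of 9 libraries (exact two-sided sign-flip permutation test, p = 0.00391, the smallest that 512 patterns allow). It was 0.99 without the largest chromosome 7 array, described below, which has the lowest rows. Total H3 was not counted over promoter rows, so these levels have no H3 background. Reads of near-identical paralogs may also be lost or split between rows.

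On average chromosome 6 was high beyond the receptors alone. Its mean remaining row held 20.6 ± 1.06 CPM in DKO libraries (SD, n = 4) and 21.9 ± 1.78 CPM in WT libraries (SD, n = 5). Both lay above the mean Vmn1r row there. The mean remaining row of other chromosomes, without chromosome Y, held 12.6 ± 0.140 CPM in DKO libraries and 12.8 ± 0.235 CPM in WT libraries. Both again lay above the mean Vmn1r row, but the set includes a row at 29698 CPM. Medians over all rows ran the other way, at 18.0 CPM for Vmn1r and 14.4 CPM for the remaining rows on chromosome 6. On other chromosomes they were 6.38 and 5.88 CPM. Over rows free of overlap the Vmn1r medians were the lower ones, at 23.6 against 28.3 CPM on chromosome 6 and 7.80 against 12.3 CPM elsewhere. The ratio of mean rows, chromosome 6 over other chromosomes, was 1.64-fold larger for Vmn1r than for the remaining rows (log2 0.72, larger in 9 of 9 libraries, exact sign-flip p = 0.00391, the smallest possible). It was not computed from medians. That excess shrank to a log2 of 0.25 without the largest chromosome 7 array, with the same p, so most of it rested on 1 low array of other chromosomes. Over rows that overlap no other promoter row it was 1.10.

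**Figure D2:**
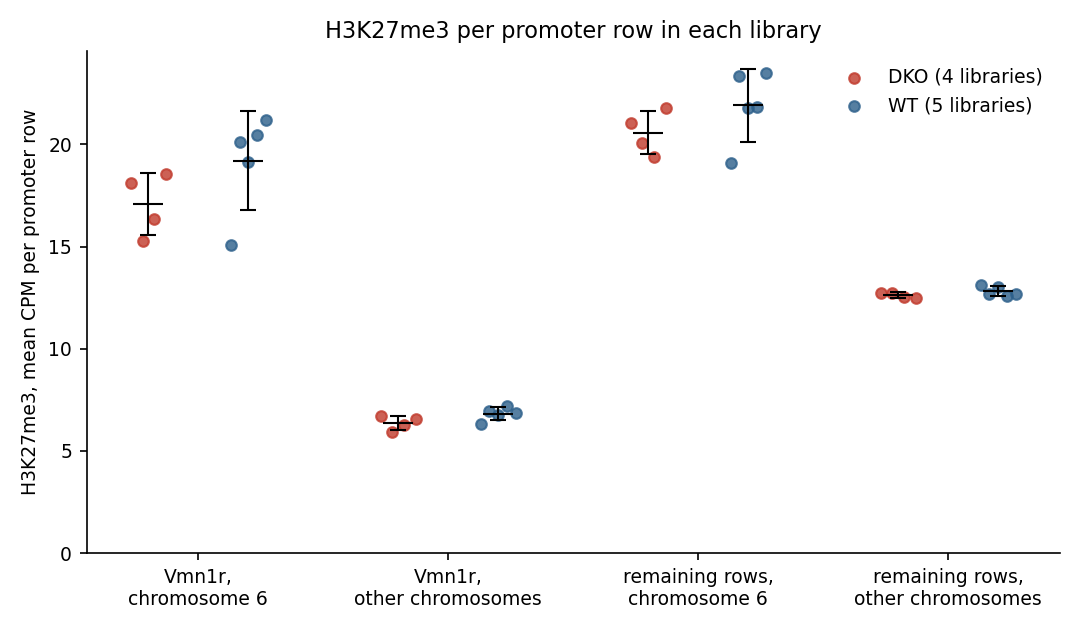
Mean H3K27me3 per promoter row (y axis, CPM) in each of 4 DKO and 5 WT libraries (points, with mean and SD as bars) for Vmn1r rows and the remaining rows without chromosome Y, on chromosome 6 and on other chromosomes. Vmn1r rows on chromosome 6 lie between 15.1 and 21.2 CPM, those of other chromosomes between 5.92 and 7.22 CPM.

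The difference held row by row. Reads that overlap several rows were not counted, so rows free of overlap are compared here, 65 on chromosome 6 and 195 on other chromosomes. Of the 65 chromosome 6 rows, 62 lay above the median of the other-chromosome rows and 25 above the highest of them. Of the 195 rows on other chromosomes, 1 (Vmn1r235) lay above the chromosome 6 median. In 61 of the 65, every one of the 9 libraries exceeded the mean other-chromosome row of that library. Over all member rows, 49 had no count in any library, 6 on chromosome 6 and 43 elsewhere. All 52 chromosome 6 genes had at least 1 count, while 33 genes on other chromosomes had none. The largest chromosome 7 array, described below, holds 76 of the 195 rows and 34 of the 43 rows without a count. Whether its reads were lost between close paralogs was not tested.

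Other chemoreceptor families showed the same contrast between chromosomes. The ratio of chromosome 6 to other rows, as a geometric mean over the 9 libraries, was 2.75 for Vmn1r, 2.21 for Vmn2r, the type 2 vomeronasal receptors (9 chromosome 6 rows), 3.10 for Olfr, the odorant receptors (64 rows), and 2.67 for Tas2r, the bitter taste receptors (33 rows on chromosome 6 but 2 elsewhere). The Vmn1r ratio was 1.24-fold that of Vmn2r (higher in 9 of 9 libraries, adjusted p = 0.00586) and 0.886-fold that of Olfr (higher in 1 of 9, adjusted p = 0.00938). Against Tas2r it was 1.03-fold (higher in 5 of 9, adjusted p = 0.656). In level on chromosome 6, Vmn1r rows were 1.18-fold Vmn2r, 0.798-fold Olfr and 0.671-fold Tas2r rows (adjusted p = 0.00586 each). These are 6 exact sign-flip permutation tests, adjusted together and chosen after seeing the data. They take the spread between libraries and not that between rows. The Vmn1r ratio in them includes the largest chromosome 7 array, described below. Without that array the Vmn1r log2 ratio was 0.99, under 2-fold and so below the ratio of each other family over all its rows. The family tests were not repeated without it, so the higher ratio of Vmn1r than of Vmn2r holds only with that array. The families differ in overlap between rows and in array, and the part of these in the ratios was not tested. The Taar trace-amine receptors (15 rows), Fpr-rs formyl peptide receptors (5 rows), Tas1r (4 rows) and Ms4a (34 rows) have no chromosome 6 row in the table. Their mean rows were at 13.7, 8.35, 4.29 and 6.79 CPM in DKO libraries and at 13.3, 9.54, 3.66 and 7.13 CPM in WT libraries.

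The chromosome 6 genes fall into 3 arrays (runs of members under 1 Mb apart) and 1 single row near the start of the chromosome. The proximal array (chr6:56922022-58477330, 59 rows, 28 genes) ends 54.6 Mb before Rosa26, the middle array (chr6:66559096-66812609, 21 rows, 8 genes) 46.3 Mb before it and the distal array (chr6:89705540-90270106, 28 rows, 15 genes) 22.8 Mb before it. Over rows free of overlap (32, 8 and 24 rows in the 3 arrays), the proximal array held 19.5 CPM per row in DKO libraries and 21.8 CPM in WT libraries. The middle array held 22.8 CPM in DKO libraries and 27.4 CPM in WT libraries. The distal array held 27.7 CPM in DKO libraries and 31.7 CPM in WT libraries. On these rows the distal array was 1.44-fold the proximal and 1.18-fold the middle one, and the middle 1.21-fold the proximal, each in 9 of 9 libraries (exact sign-flip permutation, adjusted p = 0.00391 over 3 contrasts). These contrasts were chosen after seeing the data. Their p-values take the spread between libraries and not that between rows, of which the middle array has 8. Over all rows the middle array lay below the proximal one, with 13.1 CPM in DKO and 15.5 CPM in WT libraries, against 14.4 CPM in DKO and 15.8 CPM in WT libraries for the proximal array. The distal array was again the highest, with 26.2 CPM in DKO and 29.7 CPM in WT libraries. The median row of the middle array has 1993 bp of its own, while the median row of the other 2 arrays overlaps no other row. The DKO to WT difference of the ratios over rows free of overlap gave adjusted p of 0.262 to 0.619 (exact permutation). The single row, 110 Mb from Rosa26, held 2.89 CPM in DKO libraries and 2.96 CPM in WT libraries. The 35 rows within 1 Mb of it that are no member held 11.9 CPM in DKO and 12.8 CPM in WT libraries. That is near the mean remaining row of other chromosomes (12.6 CPM in DKO and 12.8 CPM in WT libraries), so this end of chromosome 6 was not high.

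Over all rows within 1 Mb that are no member, the level was 18.4 CPM in DKO libraries and 20.1 CPM in WT libraries at the proximal array, 20.5 CPM in DKO and 21.9 CPM in WT libraries at the middle one, and 24.4 CPM in DKO and 24.6 CPM in WT libraries at the distal one. Counted over all rows in the same way, the Vmn1r rows of the proximal and middle arrays lay below their neighbours in both genotypes, and those of the distal array above them. Overlap between rows lowers counts, and the neighbours were not compared over rows free of overlap. Over such rows, all remaining chromosome 6 rows held 33.2 CPM in DKO and 35.2 CPM in WT libraries. The distal array held 27.7 CPM in DKO and 31.7 CPM in WT libraries there.

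Off chromosome 6, the chromosome 17 array (28 rows) was the highest, with 15.9 CPM per row free of overlap in DKO libraries and 18.2 CPM in WT libraries. The chromosome 13 array (70 rows) held 9.62 CPM in DKO and 10.1 CPM in WT libraries, and the second chromosome 7 array (50 rows) 10.6 CPM in DKO and 11.3 CPM in WT libraries. The largest chromosome 7 array (chr7:20097680-24055772, 99 rows, 86 genes) held 1.38 CPM in DKO and 1.25 CPM in WT libraries, and 34 of its rows had no count at all.

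**Figure D3:**
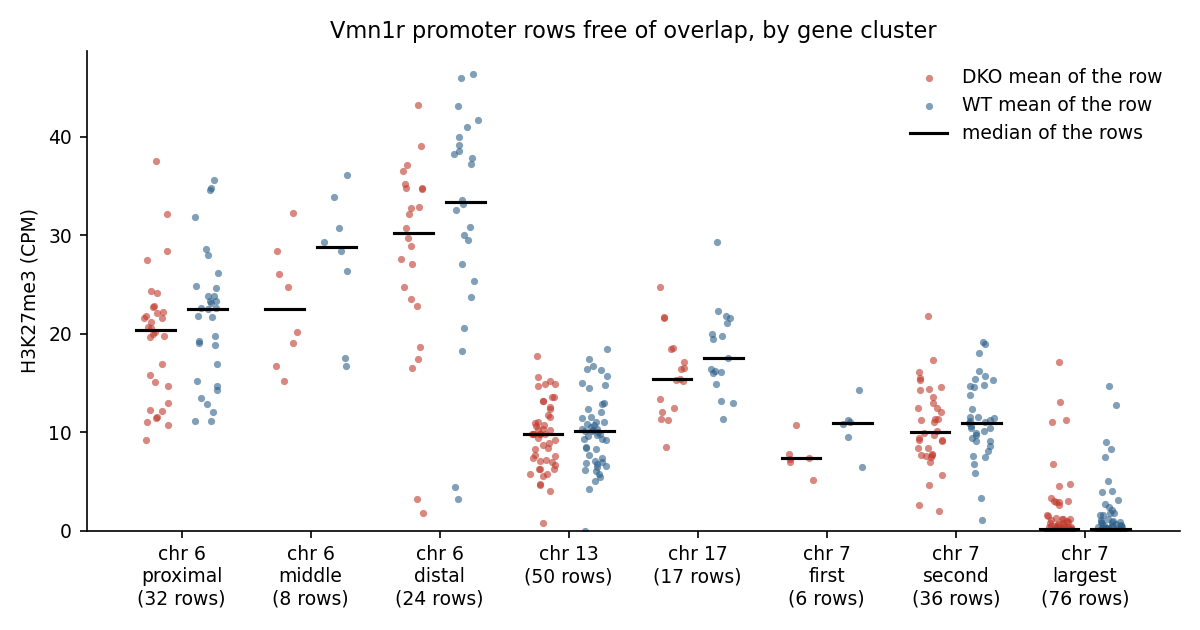
Each promoter row free of overlap as a point, at its mean over 4 DKO or 5 WT libraries (y axis, CPM), by Vmn1r array, with the median of the rows as a black line. The 3 chromosome 6 arrays stand above the others, and the rows of the largest chromosome 7 array lie mostly near 0.

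Between genotypes, no Vmn1r promoter row passed the test. Of the 109 chromosome 6 rows, 88 (50 genes) had enough counts for edgeR's quasi-likelihood test, and 0 passed the threshold of 0.05 on the Benjamini-Hochberg adjusted p. Of the 272 rows elsewhere, 113 (81 genes) were tested and 0 were called. Over all 32647 rows tested, 0.628% were called, with 143 rows (0.438%) higher and 62 rows (0.19%) lower in DKO. Unadjusted p was under 0.05 for 5 of the 88 and 4 of the 113 rows, against 3339 of all 32647 rows, a larger share, and DESeq2 called 0 in both groups. Of the chromosome 6 rows tested, 72 had a lower and 16 a higher fitted level in DKO, with a median log2 fold change of -0.17. On other chromosomes 78 were lower and 35 higher, with a median of -0.10. The median was -0.08 over the 2499 remaining chromosome 6 rows (2 rose, 8 fell) and -0.01 over all rows. Every DKO library was below every WT library in 1 of the 88 rows (Vmn1r33) and 1 of the 113 rows (Vmn1r227), against 1.61% of all rows tested. When promoter counts were simulated over 31257 rows, the test recovered 20.9% of 1.5-fold changes and 50.7% of 2-fold changes, so most small changes of single rows were not detectable at this depth.

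**Figure D4:**
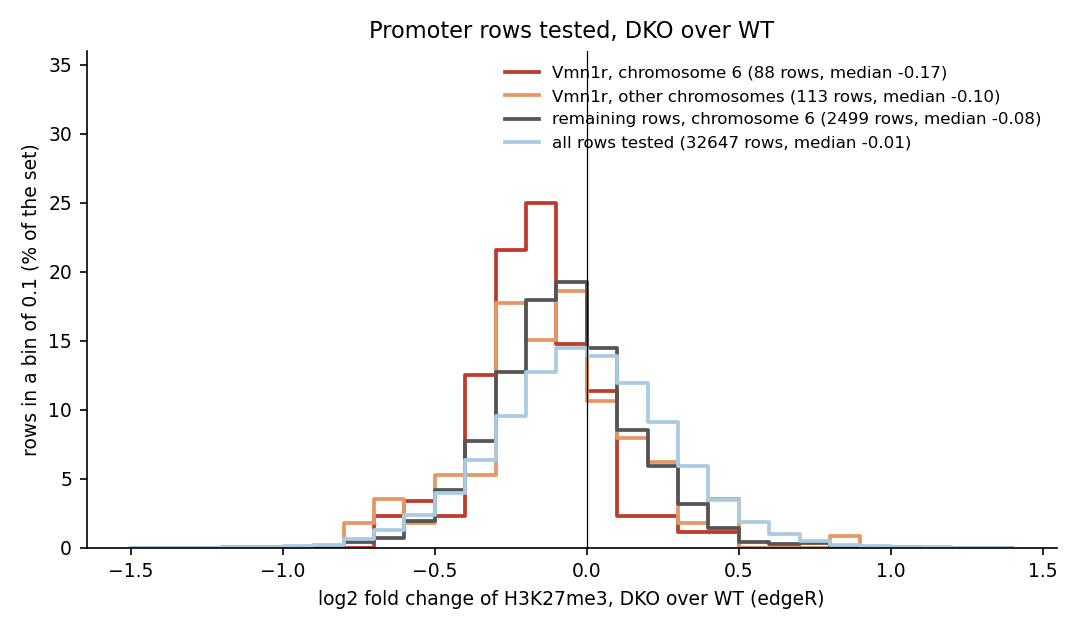
Distribution of log2 fold changes of H3K27me3, DKO over WT (x axis), as the share of tested rows per bin of 0.1 (y axis, %), for 4 sets of promoter rows. Medians run from -0.17 for chromosome 6 Vmn1r rows to -0.01 for all rows.

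The sums over members, which average out the counting error of single rows, gave small differences. Chromosome 6 Vmn1r rows summed to 1861 ± 166 CPM in DKO libraries (SD, n = 4) and 2093 ± 264 CPM in WT libraries (SD, n = 5), a log2 fold change of -0.16 (exact two-sided permutation over 126 groupings, p = 0.183). Those on other chromosomes summed to 1729 ± 92.4 CPM in DKO libraries and 1855 ± 88.8 CPM in WT libraries, a log2 fold change of -0.10 (exact permutation p = 0.0794). The ratio of chromosome 6 to other rows differed by a log2 of -0.06 between DKO and WT (exact permutation p = 0.444). Relative to the remaining chromosome 6 rows, the Vmn1r rows differed by -0.08 (exact permutation p = 0.238). These values moved with WT replicate 1, which had the lowest ratio of chromosome 6 to other rows both for Vmn1r (2.38) and for the remaining rows (1.46). Without it the 4 log2 differences were -0.25, -0.13, -0.12 and -0.11, each with an exact permutation p of 0.0286, the smallest that 4 against 4 libraries allow. WT replicate 1 was singled out from the same values that are compared here. These p-values are therefore no test, and with all libraries none of the 4 differences passed 0.05. Within the 5 libraries whose names carry neither Old nor New, chromosome 6 differed by -0.11, and within the 4 that carry one by -0.26. Neither subset can reach p under 0.05.

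By array, 8 were tested between genotypes. The largest difference was at the first chromosome 7 array, with a log2 fold change of -0.30 (exact permutation, adjusted p = 0.254). The chromosome 17 array had 13.0, 10.9, 12.1 and 13.0 CPM per row in DKO replicates 1 to 4, against 13.1, 14.9, 14.6, 13.8 and 13.5 CPM in WT replicates 1 to 5. Every DKO library lay below every WT library there, with a log2 fold change of -0.19 (unadjusted exact permutation p = 0.0159, adjusted p = 0.127). The 3 chromosome 6 arrays differed by -0.13, -0.24 and -0.18 from proximal to distal (adjusted p of 0.302 to 0.317). Relative to their neighbouring rows they differed by -0.0047, -0.15 and -0.17 (exact permutation, adjusted p of 0.119 to 0.929).

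Among single genes, the highest chromosome 6 rows were those of the distal array, which held 9 of the 10 highest. Vmn1r50 (chr6:90099430-90102430) had 47.8, 32.4, 37.6 and 54.9 CPM in DKO replicates 1 to 4, against 27.6, 65.4, 43.7, 45.9 and 49.4 CPM in WT replicates 1 to 5. Its DKO libraries all lay within the range of its WT libraries, and its log2 fold change was -0.07 ± 0.17 (SE, edgeR adjusted p = 0.933). Vmn1r51 (second row) had 46.0, 26.3, 33.5 and 42.7 CPM in DKO libraries, against 42.8, 40.2, 45.9, 46.7 and 54.3 CPM in WT libraries, with 2 of the 4 DKO libraries below every WT library (log2 fold change -0.32 ± 0.17, SE, edgeR adjusted p = 0.539). The other 8 rows were those of Vmn1r41, Vmn1r42, Vmn1r44 (2 rows), Vmn1r51 (first row), Vmn1r54 and Vmn1r49 in the distal array and Vmn1r4 in the proximal one, all receptors of the same family. Over the 10 rows the log2 fold changes ran from -0.32 to 0.08, 9 of them negative, with the smallest adjusted p at 0.539.

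Of the 10 highest rows on other chromosomes, 8 were on chromosome 17. Vmn1r235 (first row, from 21254411 on chromosome 17) had 26.7, 19.2, 25.8 and 27.5 CPM in DKO libraries, against 21.4, 34.0, 30.3, 29.9 and 31.1 CPM in WT libraries. Only DKO replicate 2 lay below every WT library, and the log2 fold change was -0.22 ± 0.20 (SE). The others were rows of Vmn1r226, Vmn1r233, Vmn1r231, Vmn1r228 (2 rows), Vmn1r235 (second row) and Vmn1r230 on chromosome 17, Vmn1r87 on chromosome 7 and Vmn1r195 on chromosome 13. Their levels reached down to 17.8 CPM, and over the 10 rows the log2 fold changes ran from -0.29 to 0.30, 7 of them negative, with the smallest edgeR adjusted p at 0.701.

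The rows nearest to the threshold were these, named for their unadjusted p. Vmn1r33 in the middle array had 22.1, 17.2, 14.6 and 22.1 CPM in DKO libraries, against 25.9, 34.0, 22.4, 35.0 and 24.7 CPM in WT libraries, so the groups did not overlap (log2 fold change -0.58 ± 0.21, SE, edgeR adjusted p = 0.220). Vmn1r46 in the distal array had 19.3, 16.2, 12.5 and 26.7 CPM in DKO libraries, against 22.3, 26.4, 17.9, 32.1 and 36.7 CPM in WT libraries, with overlap between the groups. Vmn1r210 on chromosome 13 ran the other way, with 15.6, 15.2, 11.2 and 12.2 CPM in DKO libraries, against 7.13, 2.52, 3.36, 10.9 and 9.88 CPM in WT libraries (log2 fold change 0.83 ± 0.31, SE, edgeR adjusted p = 0.249). Every DKO library of Vmn1r210 was above every WT library, in 1 of the 201 member rows tested. The share of all rows with that order was not computed, so this separation is no result. None of these 3 rows was called.

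The union regions, on which the authors' deposited tables count both genotypes, touched Vmn1r promoters on chromosome 6 alone. Of 57909 regions, 31 overlapped a member row by at least 1 base, and all 31 were on chromosome 6, which holds 41.5% of all regions and 30.4% of their bases. The nearest region to any member row elsewhere was 12987 bases away, at the second chromosome 7 array, and 0 regions lay within 5000 bases of a member row off chromosome 6. Within the spans of the arrays, regions covered 5.01% of the proximal, 1.94% of the middle and 11.7% of the distal array. Over the whole of chromosome 6 they covered 23573304 bases. The share of the chromosome that this makes was not computed, nor the share of its other promoter rows that a region touches. The coverage is therefore no sign that the arrays are marked more than the chromosome at large. The 31 regions touched 21 rows of 14 genes, 7 in the proximal, 2 in the middle and 22 in the distal array. Vmn1r51 had 5 of them, and Vmn1r44 and Vmn1r50 had 4 each. They were short, from 269 to 2204 bases with a median of 555, against 611 for the remaining chromosome 6 regions and 762 elsewhere. A Vmn1r start site lay inside 4 of them.

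By the authors' lists, 6 of the 31 regions were called in DKO alone, 10 in both genotypes and 15 in WT alone. Over all chromosome 6 regions, 23.5% were called in DKO alone, 44.5% in both and 32.0% in WT alone. The lists themselves fix the direction of a region found in 1 genotype, so that direction is no result. The shared regions summed to 73.7 ± 10.00 CPM in DKO libraries (SD, n = 4) and 88.2 ± 17.1 CPM in WT libraries (SD, n = 5). The mean was lower in DKO in 9 of the 10 shared regions, the exception being 1 at Vmn1r41.

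Over all 31, the sum was 158, 137, 133 and 161 CPM in DKO replicates 1 to 4, against 135, 179, 163, 192 and 217 CPM in WT replicates 1 to 5. WT replicate 1 lay within the DKO range, and the other 4 WT libraries lay above every DKO library. The log2 fold change was -0.25 (exact permutation p = 0.119), but this sum holds 21 regions whose direction the lists fix. Over the 10 shared regions it was -0.25 (exact permutation p = 0.190), and -0.33 without WT replicate 1 (exact permutation p = 0.0857, where 4 against 4 libraries allow 0.0286). Relative to the remaining chromosome 6 regions the difference over all 31 was -0.09 (exact permutation p = 0.365), and it turned to 0.03 within the 5 libraries whose names carry neither Old nor New.

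The edgeR test could be run on 18 of the 31 regions. It called 1, lower in DKO, against 4.01% of all 40418 regions tested. Among the 10 shared regions 0 were called (smallest edgeR adjusted p = 0.186). Of all regions, 866 (2.14%) were higher and 756 (1.87%) lower in DKO. This split was 1372 higher and 485 lower with library totals in place of TMM, and 532 higher and 868 lower with TMM factors from off chromosomes 6 and 11. The called region lies at Vmn1r11 (chr6:57136258-57136824) and is WT-specific by the authors' lists. It had 3.66, 3.08, 2.85 and 0.675 CPM in DKO libraries, against 4.62, 1.68, 9.50, 5.93 and 6.11 CPM in WT libraries. DKO replicate 4 alone lay below every WT library, and the log2 fold change was -1.17 ± 0.35 (SE, edgeR adjusted p = 0.0367). The list fixes the direction of this region, so the call is no independent result. The call was lost without DKO replicate 2, 3 or 4 (adjusted p of 0.0640, 0.0889 and 0.195), with the replicate number as a block (adjusted p = 0.0811) and with library totals (adjusted p = 0.0521). Without WT replicate 1, 3, 4 or 5 the region had too few counts to be tested. The promoter row of Vmn1r11 that holds the region was at 28.4 ± 1.39 CPM in DKO libraries and 35.6 ± 5.65 CPM in WT libraries and was not called. Every DKO library was below every WT library in 0 of the 18 regions, against 3.4% of all regions tested. The median log2 fold change was -0.30 over the 18 regions, -0.18 over the remaining chromosome 6 regions (16 rose, 313 fell of 15696) and -0.02 over all regions. Over shared regions alone it was -0.30 for the 10 at Vmn1r and -0.15 for the remaining ones of chromosome 6 (2 rose, 100 fell of 10270).

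The 5 regions of highest level were in the distal array. The highest, a shared region of 2204 bases at Vmn1r51 (chr6:90122785-90124988), had 20.3, 15.4, 12.7 and 16.5 CPM in DKO libraries, against 18.1, 18.5, 11.5, 17.8 and 32.1 CPM in WT libraries, overlapping between genotypes. Next came a shared region at Vmn1r50 (10.3 ± 1.76 CPM in DKO libraries, 11.3 ± 3.73 CPM in WT libraries), a WT-only region at Vmn1r42 (7.51 ± 1.69 CPM in DKO libraries, 11.4 ± 2.39 CPM in WT libraries), and shared regions at Vmn1r54 (7.45 ± 0.695 CPM in DKO libraries, 8.32 ± 2.47 CPM in WT libraries) and Vmn1r44 (7.13 ± 0.758 CPM in DKO libraries, 8.57 ± 2.74 CPM in WT libraries; SD, n = 4 and 5 throughout). None of these 5 was called.

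**Figure D5:**
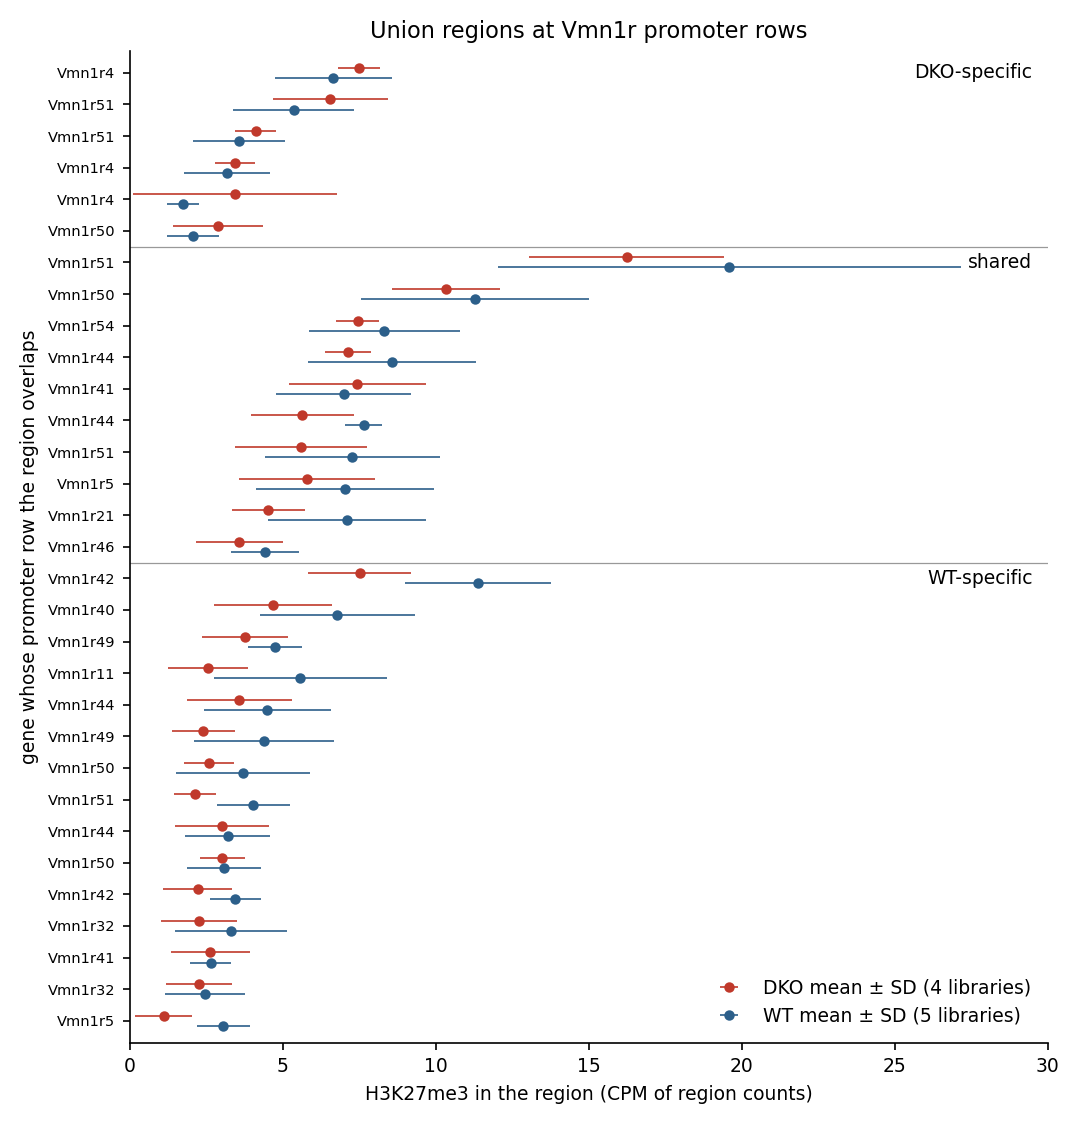
H3K27me3 in each of the 31 regions at Vmn1r promoter rows (x axis, CPM, mean and SD of 4 DKO and 5 WT libraries), named by gene and grouped by the authors' lists. DKO means lie below WT means in 9 of 10 shared regions and, by selection, in all 15 WT-specific ones.

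Total H3, the nucleosome background, was counted over the same regions. As CPM of all region counts without TMM, the 31 regions held 276 and 265 CPM of total H3 in the 2 DKO libraries, against 245 and 286 CPM in the 2 WT libraries. The DKO values lie between the WT values. For H3K27me3 the same measure in CPM was 151 ± 14.1 in DKO libraries (SD, n = 4) and 174 ± 32.5 in WT libraries (SD, n = 5). As a share of all chromosome 6 region counts, these regions held 0.0959% of total H3 in DKO libraries and 0.0915% in WT libraries, but 0.0728% of H3K27me3 in DKO libraries and 0.0775% in WT libraries. Only 4 of the 31 had enough H3 counts to test, and edgeR called 0 of them, against 0.0211% of the 18938 regions tested (1 or 0.00528% higher and 3 or 0.0158% lower in DKO; DESeq2 called 0 of all regions, and 0 of the 4 had an unadjusted p under 0.05). Their median log2 fold change was -0.18, and with 2 libraries in each group a total H3 change of 2-fold was recovered in 38.8% of simulated regions.

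Of 48 listed genes for vomeronasal signalling and receptor-neuron identity, 47 had a row, 28 were tested at their highest row, and edgeR called 0 in either direction. With 0.628% of all promoter rows called, 0 of 28 is near the general share. Unadjusted p was under 0.05 for 5 of them, and DESeq2 called 0 of the 17 it gave an adjusted p. Their median log2 fold change was -0.09. The row of the transduction channel Trpc2 was at 11.7 ± 1.21 CPM in DKO libraries and 10.2 ± 1.33 CPM in WT libraries. The row of Gnai2 was at 0.381 ± 0.763 CPM in DKO libraries and 0.461 ± 0.657 CPM in WT libraries. The part of overlap between rows in such low counts was not tested. The highest were those of transcription factors of neurogenesis, with Neurog1 at 380 ± 30.3 CPM in DKO libraries and 449 ± 25.4 CPM in WT libraries and Lhx2 at 295 ± 23.9 CPM in DKO and 365 ± 28.1 CPM in WT libraries (SD, n = 4 and 5 throughout). These are far above every Vmn1r row, and the 12 RefSeq promoters of listed genes at 50 CPM or more had a median of 27.5 CG.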

How the data were processed

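The authors deposited unnormalized counts for 13 libraries, over promoter rows and over union regions. Per the file headers, promoter counts came from featureCounts 2.0.3, unstranded, leaving out reads that overlap several rows. The submitters' processing notes list Bowtie2, MACS2, bedtools and build mm10. The authors' deposited lists of regions called in DKO, in WT or in both give coordinates and no score.

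Rows of chromosome M and 1 row without its own span were left out. Rows of chromosome Y were tested and counted in library sizes, but left out of the remaining rows and of the family ratios. Counts were tested with edgeR 4.0.16 (R 4.3.3; filterByExpr with minimum count 10 and total 15, TMM, quasi-likelihood F test, two-sided, Benjamini-Hochberg over all rows), with DESeq2 1.42.0 as an alternative. Summed values were compared by exact permutation in Python 3.11.15 with pandas 2.3.3. Members and lists were chosen with earlier results of these data known. The rule names every tested member row (201), so these are given by counts and ranges, with values for the 10 highest per group. The comparisons of arrays, families and neighbouring rows, and those relative to the remaining chromosome 6 rows or regions, were chosen after seeing the data. A total for regions off chromosome 6 could not be formed, since no region lies at a member there. On simulated counts over 37817 regions the test recovered 26.9% of 1.5-fold and 64.2% of 2-fold changes. Values of some listed genes are not reported here.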

Additional observations from a re-analysis of the deposited data

Results flagged for a closer look

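The ratio of Vmn1r to remaining chromosome 6 promoter rows was 0.860, 0.761, 0.843 and 0.851 in DKO replicates 1 to 4, against 0.790, 0.863, 0.877, 0.937 and 0.901 in WT replicates 1 to 5. DKO replicate 2, at 0.761, stands far from the other 3 DKO libraries. Chance flags about 1 in 20 groups by this test of a single library.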

How the results depend on the processing

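No Vmn1r promoter row was called under any setting. The log2 ratio of chromosome 6 to other rows ran from 1.44 to 1.48 leaving out 1 library each, and its excess over the remaining rows from 0.71 to 0.72. With only the libraries without Old or New they were 1.42 and 0.71 (exact sign-flip p = 0.0625), and with only those with Old or New 1.51 and 0.73 (exact p = 0.125), the smallest p these allow. Leaving out 1 library each gave log2 differences, DKO over WT, of -0.25 to -0.11 for the chromosome 6 sum, -0.13 to -0.068 for the sum elsewhere, -0.12 to -0.025 for their ratio, -0.35 to -0.17 for the regions, and -0.11 to -0.035 for Vmn1r over the remaining chromosome 6 rows. In each the lowest value is without WT replicate 1 and passes the threshold. That library was singled out for its low chromosome 6 share in these data, so these p-values are no test. For the regions the lists also fix part of the direction, and the shared regions alone gave -0.33 without WT replicate 1 (exact permutation p = 0.0857). Vmn1r regions over the remaining chromosome 6 regions gave 0.032 with only the libraries without Old or New. The cause was not tested.

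Promoter calls over all rows numbered 205, and 134 with no filter, 101 with the replicate block, 388 with a library set term, 22 with only the libraries that carry neither Old nor New, 57 with only those that carry one, 101 with only the rmce WT libraries, and 55 to 239 leaving out 1 library (55, 83 and 128 without DKO replicates 2, 3 and 4, and 106 and 75 without WT replicates 2 and 5). Region calls numbered 1622, and 770 with DESeq2, 961 with the replicate block, 145 and 692 in the same subsets, 879 with only the rmce WT libraries, and 621 to 2882 leaving out 1 library (739 and 621 without DKO replicates 2 and 3, and 2882, 1056, 1033 and 830 without WT replicates 1, 2, 4 and 5). Total H3 calls numbered 4, and 0 with DESeq2, 2 with no filter and 0 to 4 leaving out 1 library (2 without DKO replicate 2, and 0 and 1 without WT replicates 1 and 2). At Vmn1r, 0 regions were called with library totals, DESeq2 (which gave the Vmn1r11 region no adjusted p), the replicate block, either subset by Old or New, the rmce WT libraries or TMM factors from off chromosomes 6 and 11, and 0 to 2 leaving out 1 library (2 without WT replicate 1, one of them at Vmn1r42). Libraries of the same replicate number were hardly correlated (correlations of deviations from -0.028 to 0.071). Over promoters, DKO replicate 3 matched WT replicate 4 best (both Old), and DKO replicate 4 matched WT replicate 5 (both New). Over regions this held for DKO replicate 4, while DKO replicate 3 matched WT replicate 1 best. Under the replicate block the chromosome 6 sum differed by -0.13 (exact p = 0.5), the sum elsewhere by -0.10 and the regions by -0.17 (exact p = 0.25 each).

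Signs turned for named rows, none passing the threshold. With only the libraries without Old or New, the log2 fold change was -0.34 at Vmn1r195, 0.0011 at Vmn1r226, 0.092 at Vmn1r49, 0.097 at Vmn1r54, 0.13 at Vmn1r51 (first row) and 0.33 at Vmn1r41, and 0.089 and 0.16 in the regions at Vmn1r54 and Vmn1r51. With only those with Old or New it was -0.33 at Vmn1r4 and 0.0043 at Vmn1r230. With the rmce WT libraries it was 0.017 at Vmn1r54, 0.073 at Vmn1r50 and 0.053 in its region. With the replicate block it was -0.10 at Vmn1r195 and 0.083 at Vmn1r51, and with a library set term -0.012 at Vmn1r195. Leaving out 1 library gave -0.22 to 0.046 at Vmn1r50, -0.22 to 0.057 in its region, -0.21 to 0.014 at Vmn1r41, -0.19 to 0.065 at Vmn1r51, -0.045 to 0.19 at Vmn1r4, -0.24 to 0.12 at Vmn1r226 and -0.29 to 0.12 at Vmn1r195.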
